A study of Solanum lycopersicum var. cerasiforme with 6 samples.

Results

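The genes described here are the fruit softening enzymes of tomato and the expansin that accompanies ripening, 7 genes of the 31571 entries in the deposited table. They were chosen by gene identifier, for what the enzymes are known to do, and each of the 7 identifiers was found in exactly 1 entry. They were the polygalacturonase PG2a (Solyc10g080210.1), the pectate lyase PL (Solyc03g111690.2), the pectin methylesterases PME2 (Solyc07g064180.2) and PMEU1 (Solyc03g123630.2), the beta-galactosidase TBG4 (Solyc12g008840.1), the endoglucanase Cel2 (Solyc09g010210.2) and the expansin EXP1 (Solyc06g051800.2).

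RNA was sequenced from the pericarp of cherry tomatoes (Solanum lycopersicum var. cerasiforme ‘XinTaiyang’) that received an injection while mature green and were sampled at day 9. The 3 groups received 25 μL of abscisic acid at 10 mM (ABA), 25 μL of nordihydroguaiaretic acid at 1 mM (NDGA, used to block the synthesis of endogenous ABA) or 25 μL of distilled water (CK), and all fruits were kept at 20 °C and 90% relative humidity in the dark. The fruits came from 2 harvest batches of successive weeks, each batch received all 3 injections, and each group had 2 libraries, of which each was made of RNA pooled from the fruits of 1 batch. The deposited value of an entry is the authors' mean over both libraries in FPKM, a fragment count scaled to transcript length and sequencing depth, so that levels of different genes can be compared. No value of a single library was used here, so none of the differences below has a replicate check, and all ratios are descriptions of 3 group means.

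The primary wall of a fruit cell is a network of cellulose and xyloglucan embedded in pectin, and softening follows the loosening of this network and of the pectin-rich layer between cells. Pectin methylesterases remove methyl groups from homogalacturonan, which polygalacturonases then hydrolyse and pectate lyases cleave by elimination, while beta-galactosidases trim the galactan side chains. Endoglucanases cut beta-1,4-glucans, and expansins loosen the contacts between wall polymers without hydrolysing them.

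Most of the softening genes belonged to the most abundant transcripts of the fruit. In CK fruit PG2a was higher than 99.9% of the entries that list a single gene, PL than 99.7%, Cel2 than 99.4%, EXP1 than 99.3%, TBG4 than 98.2% and PME2 than 94.6%. PMEU1 was the exception, since only 27.2% of the single-gene entries were lower. With NDGA the order of the 7 levels was PG2a, PL, EXP1, Cel2, TBG4, PME2 and PMEU1, and in CK Cel2 stood above EXP1. With ABA the order was PL, Cel2, EXP1, TBG4, PME2 and PMEU1, with PG2a listed at 0. Neighbours in these orders cannot be compared with a spread over samples.

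**Figure D1:**
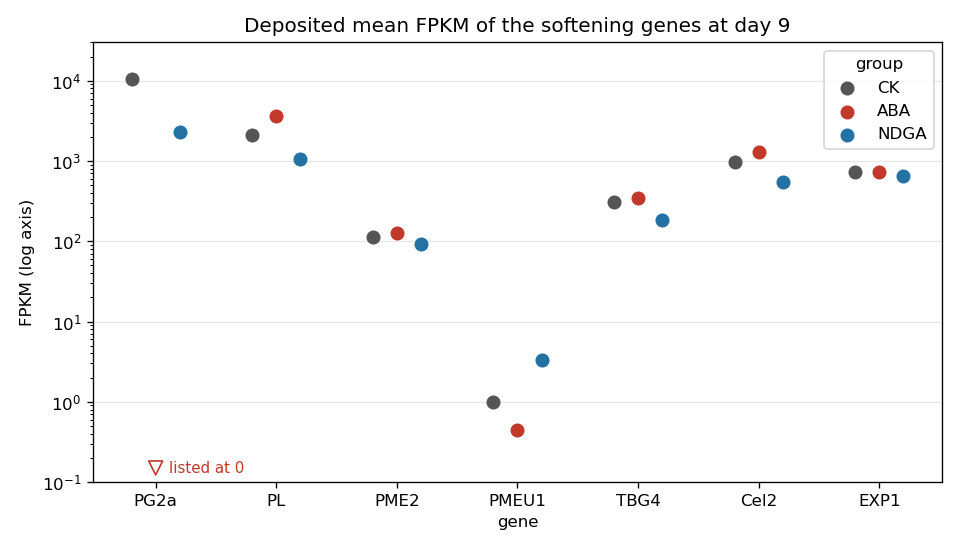
Mean FPKM (log axis) of the 7 softening genes in water-injected (CK), ABA-injected and NDGA-injected fruit at day 9, with 1 point per gene and group and no error bars because the deposited values are group means. PL, Cel2, TBG4 and PME2 run from ABA at the top to NDGA at the bottom, PMEU1 runs the other way, and the open triangle marks PG2a, which is listed at 0 with ABA and has no place on a log axis.

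PG2a, the main depolymerase of homogalacturonan in ripe tomato, had the highest level of all softening genes in CK and NDGA fruit. Its level was 10575 FPKM in CK and 2309 FPKM in NDGA, and it was listed at 0 in ABA. The NDGA value was 4.58-fold lower than that of CK (log2 ratio −2.20), the widest gap to CK among the members with NDGA. The entry covers positions 60883596 to 60890426 of chromosome 10 on the SL2.40 assembly, and no other entry overlapped it.

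A value of exactly 0 in a gene of this abundance is doubtful, because an FPKM can be listed at 0 where the estimate failed, and no ratio was formed with it. Of 110 single-gene entries with at least 1000 FPKM in CK and a locus of at least 1000 bp, 7 were listed at 0 with ABA, which is 6.36%. Among the 1366 such entries with at least 100 FPKM in CK the count was 14 (1.02%), and among the 9316 with at least 10 FPKM it was 30 (0.322%), so that an exact 0 was more frequent among the more abundant entries. E8 (Solyc09g089580.2), a ripening gene that encodes an oxygenase, was another of the 7, with 11339 FPKM in CK, 7166 FPKM in NDGA and 0 in ABA. The same happened in the other groups, since 5 of the 110 entries were listed at 0 with NDGA, and 4 of 114 entries with at least 1000 FPKM in ABA were listed at 0 in CK. Whether PG2a was low or not estimated with ABA cannot be told apart from these values. The genes on either side of PG2a had values in all groups, with 6.30, 6.44 and 5.32 FPKM in CK, ABA and NDGA for the zinc finger gene Solyc10g080200.1 and 1.32, 1.73 and 1.59 FPKM for the tetratricopeptide repeat gene Solyc10g080220.1.

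PL, the ripening pectate lyase whose silencing is known to keep tomato fruit firm, was the softening gene with the widest step between the ABA and NDGA groups after PMEU1. It had 2131 FPKM in CK, 3589 FPKM in ABA and 1053 FPKM in NDGA. It was therefore 1.68-fold higher with ABA than in CK (log2 ratio 0.75), 2.02-fold lower with NDGA (log2 ratio −1.02), and 3.41-fold higher with ABA than with NDGA (log2 ratio 1.77). The step below CK lies only just past 2-fold, and the next member, Cel2, stayed inside it. PL lies at positions 56396336 to 56398488 of chromosome 3.

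Both pectin methylesterases act ahead of the depolymerases, and they ran in opposite directions. PME2, a fruit isoform, had 114 FPKM in CK, 125 FPKM in ABA and 93.4 FPKM in NDGA, a 1.10-fold higher level with ABA (log2 ratio 0.13) and a 1.23-fold lower level with NDGA (log2 ratio −0.29). Its entry, at positions 63663613 to 63668703 of chromosome 7, is merged with Solyc07g064190.1, so that its value cannot be separated from that gene. The entry next to it, 7295 bp away, is Solyc07g064170.2, which carries the same annotation as PME2 (methylesterase PCR A) and was the most abundant pectin methylesterase, with 879 FPKM in CK, 1040 FPKM in ABA and 849 FPKM in NDGA. How the authors' estimates divide fragments between these neighbouring copies was not tested.

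PMEU1, a pectin methylesterase found throughout the plant, was low in all groups, with 0.992 FPKM in CK, 0.448 FPKM in ABA and 3.35 FPKM in NDGA. It was 2.22-fold lower with ABA than in CK (log2 ratio −1.15) and 3.38-fold higher with NDGA (log2 ratio 1.76). NDGA and ABA fruit differed 7.48-fold, but at such levels the ratio depends on small absolute values: with a pseudocount of 1 FPKM the log2 ratio to CK moved to −0.46 for ABA and to 1.13 for NDGA. The entry lies at positions 64478108 to 64481386 of chromosome 3, beside Solyc03g123620.2, annotated as pectin methylesterase 1, which had 0.831 FPKM in CK, 0.225 FPKM in ABA and 1.35 FPKM in NDGA. Both pectin methylesterase entries had the order NDGA, CK, ABA, whereas the gene on the other side of PMEU1, the pumilio gene Solyc03g123640.2, had 18.3 FPKM in CK, 17.7 FPKM in ABA and 16.1 FPKM in NDGA.

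TBG4, a beta-galactosidase that is known to act on the galactan of ripening tomato, differed little between ABA and CK and was lower with NDGA. It had 309 FPKM in CK, 342 FPKM in ABA and 182 FPKM in NDGA, that is 1.11-fold higher with ABA (log2 ratio 0.15) and 1.69-fold lower with NDGA (log2 ratio −0.76). Its entry covers positions 2183683 to 2190740 of chromosome 12.

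Cel2, an endoglucanase of glycosyl hydrolase family 9, had 969.6 FPKM in CK, 1278 FPKM in ABA and 551 FPKM in NDGA. The level was 1.32-fold higher with ABA (log2 ratio 0.40) and 1.76-fold lower with NDGA (log2 ratio −0.82), and ABA stood 2.32-fold above NDGA (log2 ratio 1.21). The entry lies at positions 3596731 to 3601979 of chromosome 9.

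EXP1, the expansin of ripening tomato fruit, hardly moved. It had 730.3 FPKM in CK, 720.1 FPKM in ABA and 652 FPKM in NDGA, with log2 ratios to CK of −0.02 for ABA and −0.16 for NDGA. It was the only softening gene whose 3 values all lay within 1.12-fold of that of CK. The entry, annotated as expansin A4, covers positions 31967806 to 31969622 of chromosome 6.

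Read together, no softening gene with a ratio was 2-fold higher with ABA than in CK, and only PMEU1 was 2-fold lower. Over the whole table, 9.59% of 26579 entries above 0 in both groups were at least 2-fold higher with ABA and 13.9% at least 2-fold lower. Among entries with a mean of at least 1 FPKM, which all softening genes reach, the shares were 6.70% and 10.5%. The 6 log2 ratios had a median of 0.14, beside 0.02 over all entries, and 4 were above 0 and 2 below.

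With NDGA, PG2a and PL were at least 2-fold lower than in CK and PMEU1 at least 2-fold higher. In the whole table, 6.22% of 27382 entries were at least 2-fold lower and 14.2% at least 2-fold higher. With a mean of at least 1 FPKM, the shares were 4.13% and 8.79%. The 7 log2 ratios had a median of −0.76, beside 0.06 over all entries, and 6 of 7 were below 0.

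Between both treatments, PL and Cel2 were at least 2-fold higher with ABA than with NDGA and PMEU1 at least 2-fold lower, against 10.1% and 21.4% of 27022 entries. Of 21489 entries with a mean of at least 1 FPKM, 1785 were higher and 3587 lower. The median log2 ratio of the 6 members with a value was 0.67, beside −0.07 over all entries. Both comparisons with CK share the CK value, so their values are given side by side and not counted as independent. The order ABA above CK above NDGA was found in PL, Cel2, TBG4 and PME2, 4 of the 6 members above 0 in all groups, and in 25.2% of 26119 entries of the whole table. EXP1 followed the order CK, ABA, NDGA, seen in 7.93% of the entries, and PMEU1 the order NDGA, CK, ABA, seen in 29.0%.

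**Figure D2:**
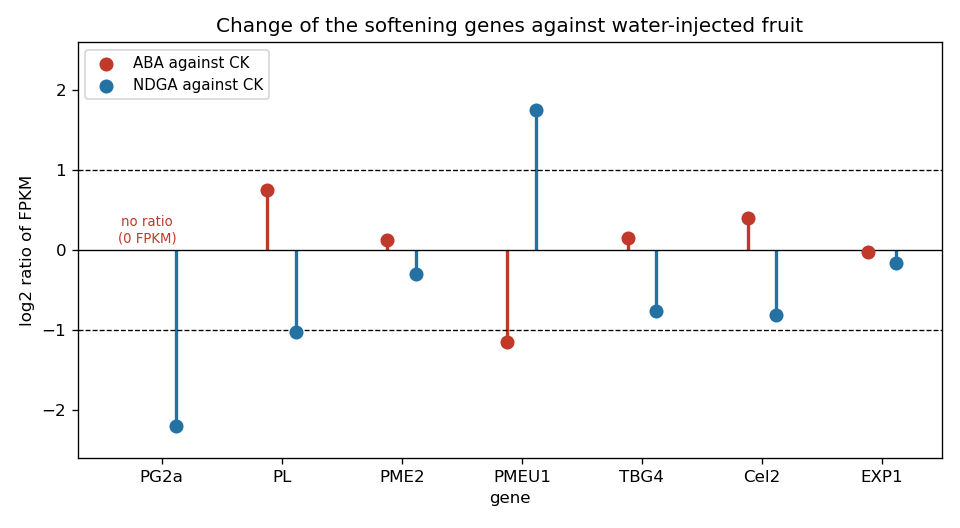
Log2 ratio of FPKM against CK for the 7 softening genes, in red for ABA and in blue for NDGA, with dashed lines at a 2-fold difference and no ratio for PG2a with ABA. With NDGA 6 of 7 genes lie below 0 and PG2a, at −2.20, is the lowest, while with ABA the highest is PL at 0.75.

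Summed over the 6 members other than PG2a, the level reached 4255 FPKM in CK, 6055 FPKM with ABA and 2535 FPKM with NDGA, 1.42-fold higher with ABA and 1.68-fold lower with NDGA. PL made the largest part of this sum in all groups. The ratio of PL to EXP1 was 4.98 with ABA, 2.92 in CK and 1.61 with NDGA, and in this order the ratio of PL to TBG4 was 10.5, 6.90 and 5.78. With PG2a included, the sum was 14830.0 FPKM in CK and 4844 FPKM in NDGA, 3.06-fold lower.

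PG2a in CK and NDGA fruit, and EXP1, Cel2 and PL in all groups, held most of the FPKM of their enzyme families, while the 2 pectin methylesterases did not. Among the polygalacturonases, PG2a made 96.9% of the summed FPKM in CK and 87.0% in NDGA, while the other 28 entries together held 336, 347 and 346 FPKM in CK, ABA and NDGA. EXP1 made 89.7%, 94.3% and 83.5% of the expansin FPKM in CK, ABA and NDGA. Cel2 made 80.7%, 85.0% and 74.2% of the endoglucanase FPKM, so that its share, like that of EXP1, was highest with ABA and lowest with NDGA. TBG4 made 54.7%, 51.7% and 41.9% of the beta-galactosidase FPKM. No other entry of these 3 families was above the softening gene in any group. Among the pectin methylesterases PME2 made 10.1%, 9.78% and 8.46%, second to Solyc07g064170.2 in each group, and PMEU1 less than any of these, with 0.0873%, 0.0349% and 0.303%. The annotation rule for pectate lyases did not take PL itself, so its share was set against the 12 other entries with the pectate lyase number of the KEGG orthology, a list chosen after the values had been seen. PL made 89.1%, 94.1% and 86.4% of that sum in CK, ABA and NDGA.

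**Figure D3:**
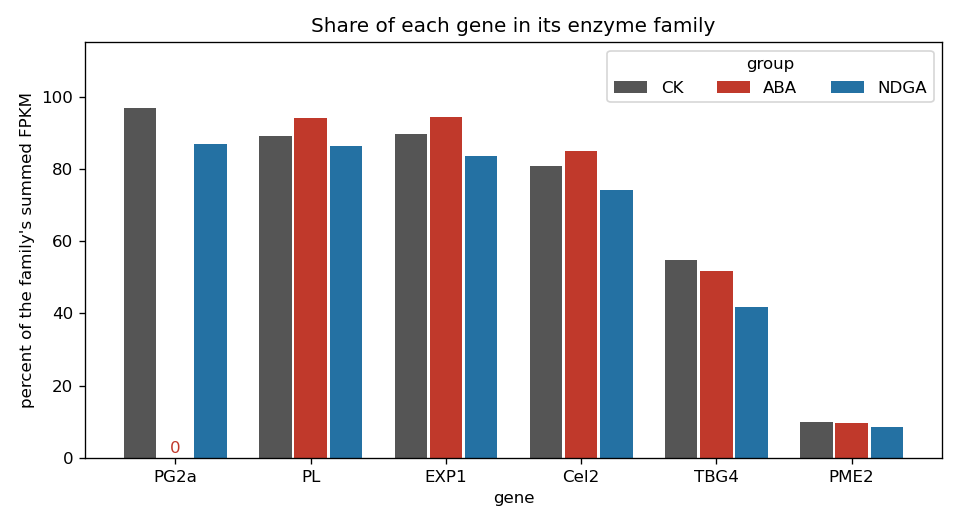
Percent of the summed FPKM of its enzyme family held by each softening gene in CK, ABA and NDGA fruit, with bars from 0 and PMEU1 left out because its share is below 1% in all groups. PG2a, PL, EXP1 and Cel2 hold most of their families, TBG4 holds between 41.9% and 54.7%, PME2 between 8.46% and 10.1%, and PG2a shows 0 with ABA because it is listed at 0 there.

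The other wall enzymes more often stood below CK with ABA and above CK with NDGA. Of 193 entries of 10 families, 98 had a mean of at least 1 FPKM over the 3 groups, and those with a ratio numbered 94 for ABA and 97 for NDGA. With ABA, 10 entries (10.6%) were at least 2-fold higher than in CK and 32 (34.0%) at least 2-fold lower, where the whole table under the same filter had 6.70% and 10.5%. With NDGA, 18 entries (18.6%) were at least 2-fold higher and 7 (7.22%) at least 2-fold lower, where the whole table had 8.79% and 4.13%. The median log2 ratio of these entries was −0.55 with ABA and 0.41 with NDGA, beside 0.04 and 0.03 over all entries under the filter. A low entry can pass this filter through its value in 1 group alone. Such entries are in these counts and in those of the single families below, to which the same whole-table shares apply. Lists of light-harvesting and Rubisco entries (green tissue) and of seed protein entries also stood higher with NDGA, and the green list lower with ABA (medians −4.14 and 0.63 for the green list, −0.09 and 1.09 for the seed list), and their part in the family counts was not tested.

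**Figure D4:**
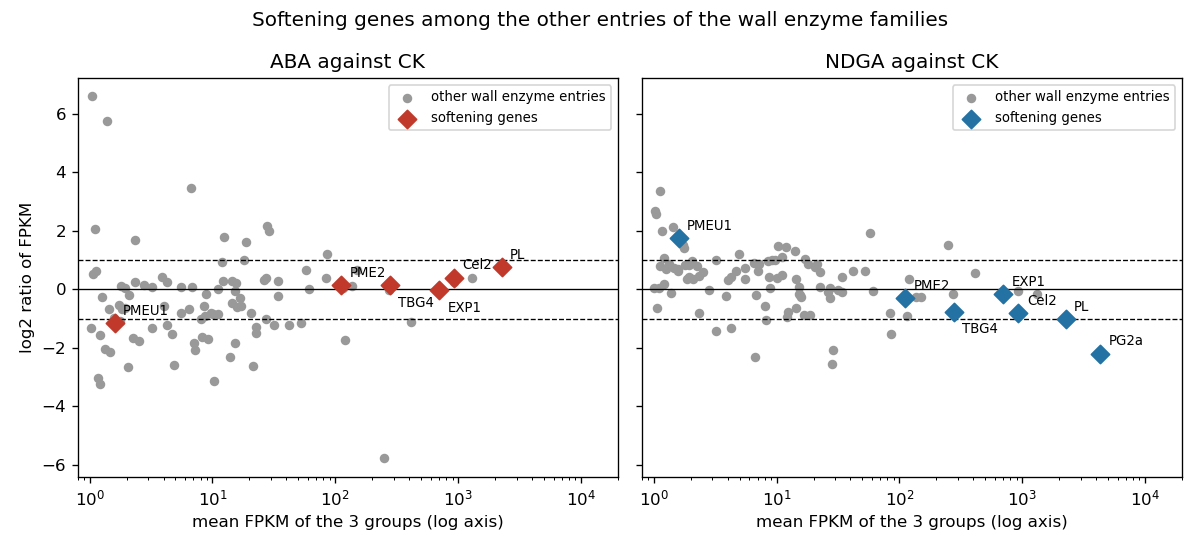
Log2 ratio of FPKM against CK (ABA on the left, NDGA on the right) and mean FPKM of the 3 groups (log axis) for 98 wall enzyme entries with a mean of at least 1 FPKM (grey, those with a ratio) and the softening genes (diamonds), with dashed lines at a 2-fold difference. The grey points lie more below than above 0 with ABA (median −0.55) and more above than below with NDGA (median 0.41), and the softening genes other than PMEU1 lie at the abundant end.

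Polygalacturonases other than PG2a split into both directions. Of the 14 with an ABA ratio, 2 were at least 2-fold higher and 4 at least 2-fold lower with ABA, and of 15 with an NDGA ratio 1 was higher and 2 lower. Solyc09g075460.2, the most abundant, had 139 FPKM in CK, 41.9 FPKM in ABA and 176 FPKM in NDGA. Solyc05g005170.2 had the reverse order, with 65.8 FPKM in ABA, 16.6 FPKM in CK and 3.98 FPKM in NDGA, 3.96-fold higher and 4.18-fold lower than CK. The other polygalacturonase that was 2-fold higher with ABA was Solyc08g082170.2, singled out after its values had been seen, with 161 FPKM in ABA, 70.5 FPKM in CK and 24.3 FPKM in NDGA. Solyc04g015530.1 had the lowest ABA ratio of the family, with 19.6 FPKM in CK, 5.53 FPKM in ABA and 20.5 FPKM in NDGA. The family therefore held entries with the order of PL as well as entries with the reverse order.

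The entries annotated as pectate lyase numbered 6, of which only Solyc02g031960.2 passed a mean of 1 FPKM. It followed PL, with 12.01 FPKM in CK, 37.2 FPKM in ABA and 6.60 FPKM in NDGA, 3.10-fold higher with ABA and 1.82-fold lower with NDGA. By the orthology number 4 further entries passed that mean, of which none was 2-fold higher and 1 was 2-fold lower with ABA. The most abundant of them, Solyc09g091430.2, had 232 FPKM in CK, 189.7 FPKM in ABA and 136 FPKM in NDGA, below CK in both treatments.

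Among 12 other pectin methylesterases, none was 2-fold higher and 4 were 2-fold lower with ABA, while 2 were higher and 1 lower with NDGA. Solyc06g051960.2, counted as lower with ABA and as higher with NDGA, passed the filter only through its 2.74 FPKM in NDGA. Solyc12g098340.1 had 39.3 FPKM in CK, 17.1 FPKM in ABA and 38.8 FPKM in NDGA, a gap with ABA alone. Solyc01g091060.1 was above CK in both treatments, with 6.40 FPKM in CK, 12.1 FPKM in ABA and 17.5 FPKM in NDGA. Neither had the order of PME2 or that of PMEU1, but most of the 12 entries had 1 of these orders. Over the whole table, 25.2% of the entries above 0 in all groups had the order of PME2 and 29.0% that of PMEU1. Solyc07g064170.2 had that of PME2. Solyc07g043240.2 had that of PMEU1, with 7.07 FPKM in CK, 4.80 FPKM in ABA and 13.9 FPKM in NDGA.

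The list of pectinesterase and invertase inhibitors, proteins that bind and inhibit either enzyme, held 9 entries above the filter, and by its rule it also took an entry annotated as F1F0-ATPase inhibitor. With ABA 3 were at least 2-fold higher and 2 at least 2-fold lower, and with NDGA 2 were higher and 1 lower. Among those higher with ABA, Solyc09g072950.1 and Solyc01g059940.2 passed the filter only through their ABA value. They had 0.0753, 4.02 and 0.0686 FPKM, and 0.0305, 2.92 and 0.180 FPKM, in CK, ABA and NDGA. Solyc01g059940.2 was also counted as higher with NDGA, at these low values. Pectin methylesterase inhibitor 2 (Solyc03g112170.1) had 1.64 FPKM in CK, 18.2 FPKM in ABA and 0.334 FPKM in NDGA, 11.1-fold higher and 4.92-fold lower. Solyc07g042390.1 had 7.84 FPKM in CK, 0.885 FPKM in ABA and 21.99 FPKM in NDGA, the reverse order. The most abundant inhibitor, Solyc12g099200.1, annotated as an inhibitor of fructosidase, had 423 FPKM in CK, 193 FPKM in ABA and 615 FPKM in NDGA.

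Few beta-galactosidases passed a 2-fold difference. Of 8 entries besides TBG4, none was 2-fold higher and 1 was 2-fold lower with ABA, and none passed 2-fold with NDGA. Solyc12g044880.1 has 2 entries among these 8. Solyc03g121540.2 (beta galactosidase 1), second to TBG4 in mean level, had 131 FPKM in CK, 209 FPKM in ABA and 111 FPKM in NDGA, the same order as TBG4. The entry that passed with ABA, Solyc01g110000.2, had 21.5 FPKM in CK, 3.51 FPKM in ABA and 39.5 FPKM in NDGA.

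The expansins contrasted with EXP1. Of 8 others, 4 were at least 2-fold lower and 1 at least 2-fold higher with ABA, while 3 were at least 2-fold higher and none lower with NDGA, and their median log2 ratios were −1.02 and 0.99. Several of these calls come from low entries. Solyc06g060970.1 (1.14 FPKM in CK, 0.122 FPKM in ABA) and Solyc01g090810.2 (1.96 and 0.311 FPKM) were among those lower with ABA. The one higher with ABA, Solyc08g077910.2, passed the filter only through its 2.22 FPKM in ABA. Solyc03g115890.2, higher with NDGA, passed it only through its 3.11 FPKM in NDGA. Expansin A13 (Solyc03g031840.2) had 42.1 FPKM in CK, 18.2 FPKM in ABA and 65.2 FPKM in NDGA. Expansin A15 (Solyc02g088100.2) had 8.33 FPKM in CK, 2.56 FPKM in ABA and 16.6 FPKM in NDGA. The expansin-like B1 gene Solyc08g077330.2 was nearer to EXP1, below CK in both treatments, with 19.1 FPKM in CK, 12.5 FPKM in ABA and 16.0 FPKM in NDGA. The other expansins together reached 84.3 FPKM in CK, 43.5 FPKM with ABA and 129 FPKM with NDGA, far less than EXP1 in each group.

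Among the endoglucanases besides Cel2, 11 had ratios in each comparison. With ABA 1 was at least 2-fold higher and 4 at least 2-fold lower, and with NDGA 3 were higher and 1 lower. Solyc02g083980.2 has 2 entries in these counts that ran in opposite directions. The first had 1.24, 4.02 and 1.71 FPKM in CK, ABA and NDGA and was the one higher with ABA. The second had 5.47, 2.21 and 2.02 FPKM and was among those lower with ABA and the one lower with NDGA. The second most abundant, glycosyl hydrolase 9B14 (Solyc08g081620.2), followed the order of Cel2, with 135 FPKM in CK, 140.3 FPKM in ABA and 72.5 FPKM in NDGA. Glycosyl hydrolase 9A1 was listed for a pair of genes, of which Solyc01g102580.2 had 32.7, 39.6 and 30.4 FPKM and Solyc05g005080.2 had 11.5, 2.32 and 28.3 FPKM in CK, ABA and NDGA. The pair therefore had opposite orders under the same name.

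Xyloglucan endotransglucosylases, which cut and rejoin xyloglucan chains, had the most entries above the filter (21) and have no member among the softening genes. None of 19 with a ratio was 2-fold higher and 7 were 2-fold lower with ABA, while 7 of 21 were 2-fold higher and none 2-fold lower with NDGA. Among those higher with NDGA, Solyc02g091920.2 and Solyc01g099630.2 passed the filter only through their NDGA values of 3.09 and 2.53 FPKM. Solyc12g011030.1 and Solyc04g008210.1 have 2 entries each. Those of Solyc04g008210.1 had log2 ratios to CK of −0.92 and 0.67 with ABA. Solyc07g009380.2 had the widest gap, with 194 FPKM in CK, 3.55 FPKM in ABA and 550.4 FPKM in NDGA, 54.8-fold lower and 2.83-fold higher than CK. The most abundant entry, Solyc01g081060.2, instead followed the order of PL and Cel2, with 1229.7 FPKM in CK, 1597 FPKM in ABA and 1099 FPKM in NDGA. Solyc07g006870.2 was above CK in both treatments, with 11.3 FPKM in CK, 22.5 FPKM in ABA and 20.5 FPKM in NDGA.

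The rhamnogalacturonan lyases and the arabinofuranosidases and xylosidases also ran in both directions. Of 6 rhamnogalacturonan lyases, 1 was at least 2-fold higher and 3 at least 2-fold lower with ABA. Solyc11g011300.1 had 7.28 FPKM in CK, 25.3 FPKM in ABA and 4.30 FPKM in NDGA, and Solyc04g076630.2 had 7.05, 1.66 and 12.8 FPKM. Of 6 arabinofuranosidases and xylosidases, likewise 1 was higher and 3 lower with ABA. Beta-D-xylosidase 4 (Solyc10g047030.1) had 14.9 FPKM in CK, 66.8 FPKM in ABA and 2.54 FPKM in NDGA, the order of PL with wider steps, and alpha-L-arabinofuranosidase 1 (Solyc10g081120.1) had 53.0, 24.1 and 81.0 FPKM. With NDGA, each of these groups of 6 had none at least 2-fold higher and 1 at least 2-fold lower.

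The entries nearest to a softening gene in both log2 ratios to CK were taken from 3089 single-gene entries with a mean of at least 50 FPKM and values above 0, by the Euclidean distance over the 2 ratios. With so many candidates and only 2 coordinates, close neighbours exist for any gene, and the names are given as a description. PL lay nearest to a glutamate-cysteine ligase gene (Solyc08g081010.2), with 342, 579.7 and 173 FPKM in CK, ABA and NDGA at a distance of 0.033, followed by a receptor-like protein kinase gene (Solyc03g078360.1) at 0.048. TBG4 lay nearest to Solyc01g067910.2, which has no annotation in the table, at 0.013, and to Solyc12g009560.1, an EIN3-binding F-box gene with 314, 357 and 183 FPKM, at 0.040. The proteins of the latter type promote the breakdown of the ethylene-response factor EIN3 in Arabidopsis.

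Cel2 lay nearest to the F1F0-ATPase inhibitor gene Solyc05g055250.2 at 0.0013 and to the deaminase gene Solyc01g097880.2 at 0.0065, and EXP1 to the GOLD family gene Solyc07g065650.2 at 0.0066 and to the invertase or pectin methylesterase inhibitor gene Solyc01g088590.2 at 0.0098. This last gene had 284 FPKM in CK, 278 FPKM in ABA and 253 FPKM in NDGA. PME2 lay nearest to Solyc08g075730.2 at 0.011 and to the translation initiation factor gene Solyc02g079060.2 at 0.021. For PMEU1 the nearest were a gene of the lipid-transfer and 2S albumin superfamily (Solyc02g086310.1), with 1440 FPKM in CK, 642 FPKM in ABA and 4793 FPKM in NDGA at a distance of 0.027, and the unannotated Solyc05g053350.2 at 0.040.

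Marker genes of the ripening programme and of other tissues also differed between the groups. Phytoene synthase 1 (Solyc03g031860.2), the first enzyme of carotenoid synthesis, had 2795 FPKM in CK, 5451 FPKM in ABA and 1339 FPKM in NDGA, and the order ABA, CK, NDGA was also that of the ACC synthase gene ACS2 (297, 678 and 114 FPKM) and of the merged entry with the MADS-box regulator RIN (672, 1203 and 397 FPKM). PL, Cel2, TBG4 and PME2 had the same order as these markers. Of the 4 ripening markers, E8 alone was listed at 0 in a group. All 13 light-harvesting and Rubisco small chain entries above the filter were at least 2-fold lower with ABA, beside 10.5% of the whole table under that filter. Their summed level was 431 FPKM in CK, 42.7 FPKM in ABA and 651 FPKM in NDGA.

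Seeds were removed before freezing by the study's methods, yet entries named after seed storage and late embryogenesis proteins were high with NDGA. Of 82 with an NDGA ratio, 45 were at least 2-fold higher and none 2-fold lower, and with ABA 13 were higher and 17 lower. Some low entries in these counts passed the filter only through their NDGA value. An entry of Solyc08g066040.1, for example, had 0.804, 0.781 and 2.49 FPKM in CK, ABA and NDGA. Several genes have 2 entries in the list, such as Solyc02g086310.1, of which both were counted as higher with NDGA. The whole table under the same filter had 8.79% higher and 4.13% lower with NDGA, and 6.70% higher and 10.5% lower with ABA. The summed level over the 80 entries above 0 in all groups was 16299 FPKM in CK, 10644 FPKM in ABA and 36994 FPKM in NDGA, and 2 of the 86 entries were listed at 0 in CK, 4 in ABA and 2 in NDGA. Many proteins of these annotation classes also occur outside seeds. PMEU1 had the same order as the summed seed level, NDGA above CK above ABA, and as the sum of the green tissue list. The medians over the 86 seed list entries had another order, with 15.2 FPKM in CK, 17.7 FPKM in ABA and 27.5 FPKM in NDGA. The part of either list in the PMEU1 values was not tested. In such bulk RNA, fewer cells of a type and less RNA per cell cannot be told apart.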

How the data were processed

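The authors aligned reads with TopHat2 2.0.9 to the tomato genome SL2.40, used Cufflinks 2.1.1 and the ITAG2.3 gene models for FPKM, and took the mean of both replicates of a group. The deposited FPKM table gives 31571 entries with 1 mean for each of the 3 groups (6 libraries), and 24556 entries list a single gene. The fragments behind each value are unknown. The columns used hold group means, so no test across libraries was run and no p-value is given. Columns with the authors' calls in smaller deposited tables were not used.

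Members were matched by gene identifier. Ratios were taken without a pseudocount between values above 0, and a change was counted from 2-fold. Enzyme families were taken by annotation text and GO terms without the members, with a mean of at least 1 FPKM. Per family the entries with the highest mean and the largest and smallest ABA ratio were named, among single-gene entries with a mean of at least 5 FPKM and values above 0, and per member the 2 entries nearest in both ratios and the genes next to its locus. Members and lists were chosen with earlier results of these data known. Gene names came from the table and from common use, and the RefSeq table matched 0 of the 7 identifiers. Alternatives were a log2 threshold of 1.5, a pseudocount of 1 FPKM, rescaling to a median log2 ratio of 0, other filters and sums over entries. Python 3.11.15, numpy 2.4.6 and pandas 2.3.3 were used, and the counting was tested on simulated data.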

Additional observations from a re-analysis of the deposited data

How the results depend on the processing

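Of 57 member ratios under a pseudocount of 1 FPKM, rescaling or the sum over entries, 54 moved by less than 0.25 on the log2 scale. None changed sign. The sum over entries could not move a ratio, since each member is listed in 1 entry. Rescaling removed a constant of 0.035 (ABA against CK), 0.031 (NDGA against CK) or −0.014 (ABA against NDGA), which cannot reach 0.25. Only the pseudocount could therefore move a ratio that far, and only for PMEU1. All other members had at least 93.4 FPKM wherever a ratio was formed. The 54 ratios that stayed were thus bound to stay. The 3 that moved were those of PMEU1 under the pseudocount, because the pseudocount is close to its level. They became −0.46 for ABA against CK, 1.13 for NDGA against CK and −1.59 for ABA against NDGA. PMEU1 then no longer passed 2-fold with ABA, which left 0 members lower. A log2 threshold of 1.5 left 0 members lower with ABA, 1 lower with NDGA (PG2a) and 1 higher with ABA than with NDGA (PL).

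Over all entries, the threshold of 1.5 gave 1504 higher and 2226 lower with ABA, 2301 higher and 975 lower with NDGA, and 1573 higher and 3894 lower with ABA than with NDGA. The pseudocount gave 1097 and 1446 with ABA, 1379 and 578 with NDGA, and 1465 and 2882 between ABA and NDGA. A mean of at least 1 FPKM gave 1436 and 2251, 1898 and 891, and 1785 and 3587. Single-gene entries gave 1461 and 2829, 2631 and 1086, and 1808 and 4440. For the wall enzyme families, no filter gave 20 higher and 47 lower with ABA and 50 higher and 14 lower with NDGA, the pseudocount 10 higher and 21 lower with ABA and 11 higher and 4 lower with NDGA, and the threshold of 1.5 gave 9 higher and 20 lower with ABA and 8 higher and 4 lower with NDGA. Adding the pectate lyase entries by orthology number, chosen after seeing the data, gave 10 higher and 33 lower with ABA and 18 and 7 with NDGA. The family counts under the pseudocount and the threshold of 1.5 are out of 94 entries with ABA and 97 with NDGA. The whole-table counts under these settings are without the filter on the mean, so the 2 cannot be set side by side. Without the filter, the family entries with a ratio were not counted. Whether the family shares exceed those of the whole table under these alternatives was not tested.

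No paired analysis was possible because the columns used hold group means, although the design of 2 batches by 3 treatments would allow one, and leaving out a replicate was not run for the same reason. The number of fragments behind each FPKM is unknown, so low values such as those of PMEU1 have no stated precision, and a value of exactly 0 cannot be read as absence.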
